A study of Mus musculus with 6 samples.

Results

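Glycolysis and the response to low oxygen were examined through 40 genes, a list of enzymes, transporters, oxygen sensors and target genes. No rule on their values made the list, but earlier results of these data were known when it was chosen. Expression was measured on 6 Affymetrix arrays of cells differentiated in culture from mouse embryonic stem cells, 3 labelled Gata3+/-, with 1 intact copy of Gata3, and 3 labelled Gata3-/-, with none. GATA3 is a zinc finger factor on which the earliest steps of T-cell development depend. All 6 cultures were grown on OP9 and OP9-DL1 stroma with IL-7 and Flt3L and were sorted as T-cell progenitors, and no group with 2 intact copies was analysed here. The labels call the arrays of a genotype biological replicates without naming the cultures or stem cell clones behind them, so a p-value given here covers the scatter of these 6 arrays and no other. A gene was matched through probe sets annotated to its symbol alone, which 37 of the 40 genes had; Gpi1, Eno1 and Bnip3l had none. Of the 37, 30 were tested, meaning that a probe set reached a log2 intensity of 4 on at least 3 arrays, among 10302 genes tested in all. The other 7 were Gapdh, whose single-symbol probe sets are array controls left out of the test, and 6 genes too dim to test (Aldoc, Eno2, Egln3, Vegfa, Ankrd37 and P4ha2).

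Glycolysis splits glucose into pyruvate in the cytosol. Pyruvate is either reduced to lactate and exported or enters the mitochondria through the pyruvate dehydrogenase complex, which the pyruvate dehydrogenase kinases switch off. When oxygen is low, prolyl hydroxylases no longer mark the HIF alpha subunits for destruction by VHL, and HIF bound to ARNT switches on glucose transporters, glycolytic enzymes and genes of matrix synthesis and mitophagy. Activated macrophages and dendritic cells and proliferating lymphoid progenitors all draw heavily on glycolysis.

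The arrays resembled each other closely. Across all tested probe sets arrays of 1 genotype correlated by 0.974 to 0.990 and arrays of different genotypes by 0.956 to 0.982, and 19977 to 20124 probe sets reached the minimum on each array. The probe set of Gata3 itself did not separate the genotypes, at 5.88 ± 0.50 and 5.93 ± 0.48 (SD, n = 3 arrays in each), and the disrupted part of the gene is not given in the labels, so the genotypes are used as labelled. Of 9 T-lineage marker genes with a probe set, 8 lay under the minimum on every array, among them Cd3e, Cd3g, Cd3d, Ptcra and Bcl11b, so the label T-cell progenitor is not borne out by these markers. All 10 markers of monocytes and macrophages were measured. Their summed intensity was 99965 to 117690 on the Gata3+/- arrays and 75631 to 88847 on the Gata3-/- arrays, while that of 8 dendritic cell markers was 24294 to 31465 and 42609 to 59503. Both ranges separate the genotypes, and none of the defining markers of either list was under the minimum on all arrays. These sums are carried by the brightest genes, such as Ccr7 and Cd74, and the members of a list did not all go the way of its sum. Of the 8 dendritic cell markers 6 had positive and 2 negative differences, against 53.3% negative among all genes tested. Zbtb46 rose by 1.89, whereas Irf8 fell by 0.67 and Siglech, at 7.50 to 9.02 on the Gata3+/- arrays, fell to under the minimum on every Gata3-/- array. Of the 10 macrophage markers 9 had negative differences, and among them Fcgr1 fell by 0.70. Only Cd68 was positive, with a difference of 0.53 without passing. The part of cell composition in the differences given here was not tested, and in sorted populations measured as a whole fewer cells of a type and less RNA per cell cannot be told apart.

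The 2 glycolysis and hypoxia genes that passed the test between the genotypes went in opposite directions. Pdk3, a kinase that inhibits pyruvate dehydrogenase, rose 1.87-fold in Gata3-/- arrays, and P4ha1, a collagen prolyl hydroxylase induced by HIF, fell to 60.9% of its Gata3+/- level. The other 28 tested genes did not pass the threshold of an adjusted p of 0.05 in limma, adjusted over all probe sets tested. The share called, 2 of 30 or 6.67%, lies near that of all genes tested, 543 of 10302 or 5.27% (2.86% higher and 2.41% lower). A further 7 genes had an unadjusted limma p under 0.05 without passing the adjustment, 3 with higher and 4 with lower values, so that 9 of 30 (30%) lay under that level against 25.8% of all genes. The median difference of the 30 genes was -0.16 on the log2 scale against -0.02 for all genes tested, with 19 negative (63.3% against 53.3%). Their median absolute difference was 0.27 against 0.18 for all genes tested, and 76.7% of them lay within 0.5 of 0 against 84% of all genes. In 17 of the 30 the values of the genotypes did not overlap, 12 of them lower and 5 higher in Gata3-/- arrays (40% and 16.7%), whereas the values of 33.6% of all genes did not overlap, 16.7% lower and 16.9% higher. Differences here and below are Gata3-/- minus Gata3+/-, in log2 GC-RMA intensity, with their standard error (SE).

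**Figure D1:**
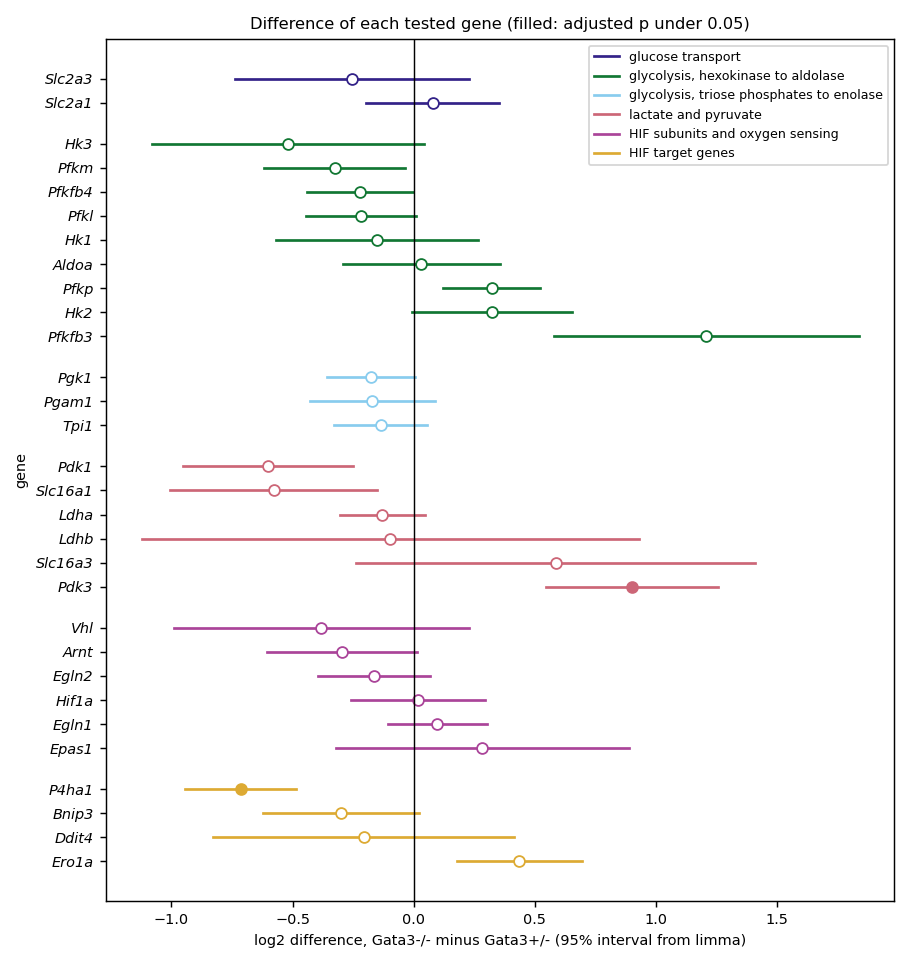
Each point is the log2 difference of 1 tested gene, Gata3-/- minus Gata3+/-, with its 95% interval from limma, in 6 functional groups. The points of Pdk3 (0.90) and P4ha1 (-0.71) are filled because they passed the adjusted threshold, the point of Pfkfb3 lies farthest from 0 at 1.21, and 23 of the 30 (76.7%, against 84% of all genes tested) lie within 0.5 of 0.

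The promoters of the genes with the clearest opposite values are shown because HIF acts through a short core, ACGTG or GCGTG, in promoters and enhancers. They are the RefSeq sequences of the GRCm38.p6 assembly from 250 bases before to 50 bases after a transcription start, printed 5′ to 3′ on the strand of the gene with every core match on either strand in capitals. Pdk1 and Pfkfb3 each have 2 starts in that table, and the first listed is printed.
P4ha1 promoter, chr10:59323046-59323345, + strand: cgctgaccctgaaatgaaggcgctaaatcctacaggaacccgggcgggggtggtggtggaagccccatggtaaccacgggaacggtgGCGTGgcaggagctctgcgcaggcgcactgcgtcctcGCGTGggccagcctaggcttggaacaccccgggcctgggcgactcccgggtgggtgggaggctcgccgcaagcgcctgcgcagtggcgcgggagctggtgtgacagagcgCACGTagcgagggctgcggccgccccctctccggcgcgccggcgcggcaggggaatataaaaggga
Pdk3 promoter, chrX:93832101-93832400, - strand: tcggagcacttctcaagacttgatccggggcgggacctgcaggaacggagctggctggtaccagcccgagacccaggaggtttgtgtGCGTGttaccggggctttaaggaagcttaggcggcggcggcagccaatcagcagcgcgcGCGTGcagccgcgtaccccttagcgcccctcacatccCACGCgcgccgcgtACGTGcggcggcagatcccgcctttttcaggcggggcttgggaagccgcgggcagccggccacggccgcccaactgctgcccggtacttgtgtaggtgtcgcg
Pdk1 promoter, chr2:71872974-71873273, + strand: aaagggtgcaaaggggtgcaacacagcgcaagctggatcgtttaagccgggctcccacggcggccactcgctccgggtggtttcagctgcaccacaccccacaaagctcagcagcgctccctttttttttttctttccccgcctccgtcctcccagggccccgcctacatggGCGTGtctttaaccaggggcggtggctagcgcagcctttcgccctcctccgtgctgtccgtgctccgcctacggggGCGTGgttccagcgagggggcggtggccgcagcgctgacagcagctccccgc
Pfkfb3 promoter, chr2:11553880-11554179, - strand: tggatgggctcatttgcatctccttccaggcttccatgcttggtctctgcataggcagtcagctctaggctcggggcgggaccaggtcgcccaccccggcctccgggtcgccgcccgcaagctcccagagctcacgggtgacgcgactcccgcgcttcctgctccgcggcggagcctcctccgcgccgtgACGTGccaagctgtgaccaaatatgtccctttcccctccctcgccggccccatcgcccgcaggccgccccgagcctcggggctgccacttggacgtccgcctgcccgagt
P4ha1 held 3 core matches, Pdk3 held 4, and in the windows printed Pdk1 held 2 and Pfkfb3 held 1. The window of the other start held 0 for Pdk1 and 4 for Pfkfb3. The core was thus present beside genes with higher and with lower values. Of the 40 genes 37 had a promoter in the table (not Slc2a3, Epas1 and Bnip3l), with 51 windows, of which 42 (82.4%) held the core against 43.8% of 32851 windows of all genes. Members' promoters were richer in G and C, with a median of 62.7% against 52.7%. Among windows of 56.5% to 68.3% G and C, 21 of 25 windows of these genes (84.0%) and 63.1% of all windows held the core. The core also lies inside the E-box CACGTG, a site of other basic helix-loop-helix factors, which 13.7% of the members' windows and 7.2% of all windows contained. A match describes letters and not binding.

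**Figure D2:**
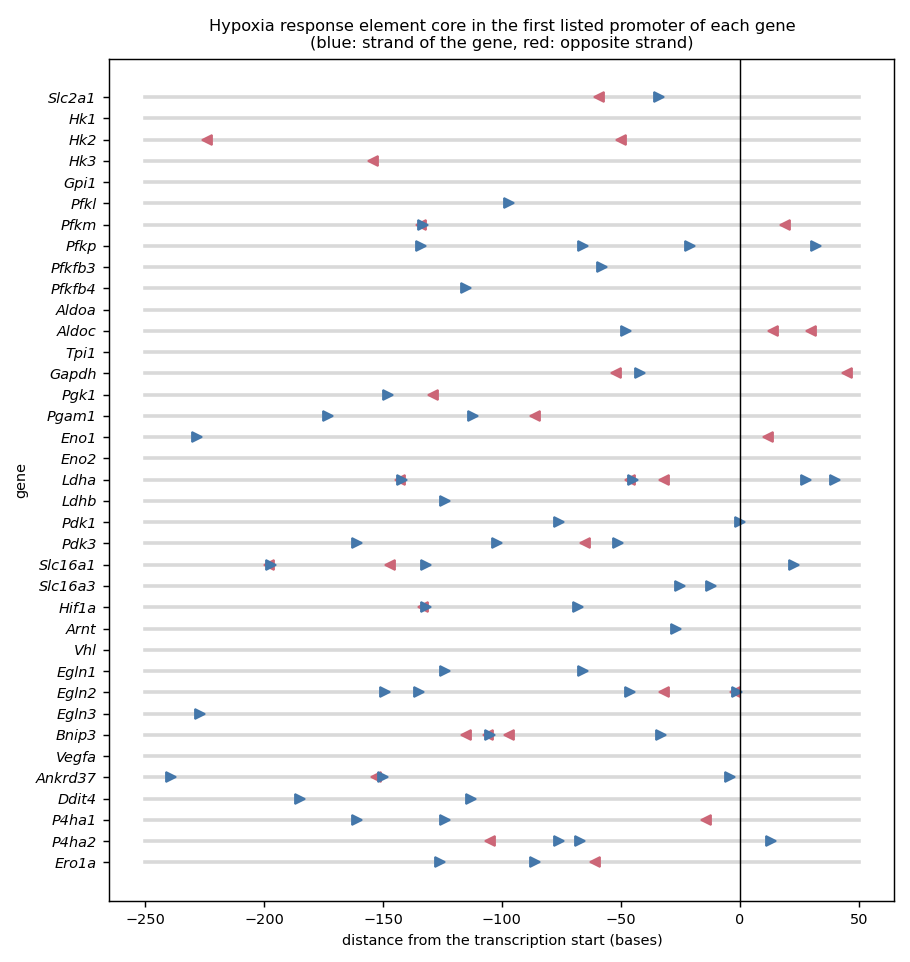
Each line is the first listed promoter of 1 of 37 genes, from 250 bases before to 50 bases after the transcription start, and each arrowhead a match to the hypoxia response element core on the strand of the gene (blue) or the opposite strand (red). The core occurs in 30 of these windows, and Hk1, Gpi1, Aldoa, Tpi1, Eno2, Vhl and Vegfa have none in theirs.

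Neither glucose transporter passed the test. Slc2a1, which encodes the widespread transporter GLUT1, stood at 12.24, 12.03 and 12.09 on Gata3+/- arrays 1, 2 and 3 and at 12.32, 12.02 and 12.25 on the Gata3-/- arrays. The genotypes overlapped, with a difference of 0.08 and a 95% interval of -0.20 to 0.35. Its 2 other probe sets, with differences of 0.07 and 0.15, overlapped as well. Slc2a3, which encodes the high-affinity transporter GLUT3, had a difference of -0.25 (SE 0.20, adjusted p = 0.50) and negative values on all 4 of its tested probe sets.

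Among the enzymes from hexokinase to aldolase 9 of 11 genes were tested and none passed the adjusted threshold in limma. An unadjusted limma p under 0.05 was found for 4 of the 9, against 25.8% of all genes tested. The widest difference was in Pfkfb3, which encodes a bifunctional enzyme that makes fructose 2,6-bisphosphate, the activator of phosphofructokinase. It stood at 9.95, 9.52 and 10.22 on the Gata3+/- arrays and at 11.36, 10.68 and 11.27 on the Gata3-/- arrays. Every Gata3-/- array was above every Gata3+/- array, but the adjusted p was 0.0602 (difference 1.21, SE 0.25, 2.31-fold). A second probe set of Pfkfb3 separated the genotypes too, with a difference of 1.09 (adjusted p = 0.148). The related gene Pfkfb4 went the other way, at 8.60, 8.62 and 8.79 against 8.51, 8.49 and 8.35, a difference of -0.22 (SE 0.09, adjusted p = 0.208).

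The 3 phosphofructokinase subunits, which catalyse the committed step of glycolysis, were split in sign. Pfkp, the platelet isoform, stood at 9.24, 9.15 and 9.30 on the Gata3+/- arrays and at 9.54, 9.47 and 9.64 on the Gata3-/- arrays, without overlap (difference 0.32, SE 0.08, adjusted p = 0.0840). Pfkm, the muscle isoform, stood at 6.94, 7.11 and 7.08 against 6.64, 6.93 and 6.58 (difference -0.33, SE 0.12, adjusted p = 0.172). Pfkl, the liver isoform, stood at 8.83, 8.64 and 8.72 against 8.57, 8.58 and 8.39 (difference -0.22, SE 0.09, adjusted p = 0.227). On these probe sets Pfkm and Pfkl were lower on every Gata3-/- array than on any Gata3+/- array, and neither passed. A second tested probe set overlapped between the genotypes for Pfkl (difference -0.11) and for Pfkp (difference 0.36).

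The hexokinases, which trap glucose in the cell as glucose 6-phosphate, were likewise mixed. Hk2, the inducible isoform, stood at 10.95, 10.77 and 10.97 on the Gata3+/- arrays and at 11.47, 11.13 and 11.06 on the Gata3-/- arrays (difference 0.32, SE 0.13, adjusted p = 0.223). The gene lies on chromosome 6, where its 24 nearest tested neighbours had a median difference of 0.64 and 9 of them were called higher, so the value of Hk2 was smaller than that of its neighbourhood. Hk3, the myeloid isoform, had a difference of -0.52 (SE 0.23, adjusted p = 0.242) and Hk1, the widespread one, of -0.15 (SE 0.17). Aldoa, the main aldolase of blood cells, overlapped fully, with a difference of 0.03 and differences of -0.05 to 0.05 over its 5 probe sets.

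From triose phosphate isomerase to enolase the measured genes showed small negative differences, and 0 of 3 passed in limma (0 with an unadjusted p under 0.05). Pgk1, the first ATP-forming enzyme of glycolysis, stood at 13.48, 13.43 and 13.50 on the Gata3+/- arrays and at 13.21, 13.34 and 13.33 on the Gata3-/- arrays. The genotypes did not overlap, at a difference of -0.18 (SE 0.07, adjusted p = 0.220). Tpi1 and Pgam1, which act just before the step of Gapdh and just after that of Pgk1, had differences of -0.14 and -0.17. Gapdh, often taken as a reference gene, stood at 15.10, 15.07 and 14.91 against 14.95, 15.01 and 14.99 on the brightest of its control probe sets, for which no test was made. On the 3′ control probe set it stood at 14.82, 14.80 and 14.79 against 14.75, 14.74 and 14.74, lower without overlap. Its 3′ minus its 5′ control probe set gave -0.28 to -0.12 on the Gata3+/- arrays and -0.27 to -0.20 on the Gata3-/- arrays, and the same measure for the actin control was 0.29 to 0.35 and 0.29 to 0.34. These overlapping ranges are the only measure of RNA quality in the deposited values used here.

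The 6 tested genes that decide the fate of pyruvate and lactate held 1 of the 2 calls, where 5.27% of all genes tested were called. Pdk3 stood at 9.95, 10.06 and 10.19 on the Gata3+/- arrays and at 11.24, 10.77 and 10.88 on the Gata3-/- arrays. The gap between the highest Gata3+/- array and the lowest Gata3-/- array exceeded the range of either genotype (difference 0.90, SE 0.14, adjusted p = 0.0383), and 1 probe set measures the gene. Leaving out any 1 array gave differences of 0.76 to 0.99 and adjusted p-values of 0.0784 to 0.124, so the call was lost in each of the 6 fits. In those fits only 0 to 4 of all genes tested were called. Without a filter on low values the adjusted p of Pdk3 was 0.0904. Pdk3 lies on the X chromosome, where its 24 neighbours had a median difference of -0.07 and 0 of them were called in limma, against 3 higher and 12 lower of 320 X-linked genes tested.

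Pdk1, a second kinase of the same complex and a HIF target, pointed the other way. It stood at 10.40, 10.65 and 10.21 on the Gata3+/- arrays and at 9.67, 9.96 and 9.84 on the Gata3-/- arrays. The values did not overlap, yet the adjusted p was 0.0738 (difference -0.60, SE 0.14). All 3 tested probe sets of Pdk1 separated the genotypes in this direction, with differences of -0.52 to -0.69. Slc16a1, which encodes the monocarboxylate transporter MCT1, stood at 11.14, 10.99 and 10.66 against 10.09, 10.48 and 10.49 (difference -0.58, SE 0.17, adjusted p = 0.121). Slc16a3, which encodes the lactate exporter MCT4, had a difference of 0.59 with overlap between the genotypes (SE 0.33, adjusted p = 0.357). It lies on chromosome 11, whose 886 tested genes had a median difference of 0.33.

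Neither lactate dehydrogenase subunit passed. Ldha, the subunit that favours lactate production, stood at 13.94, 13.87 and 13.82 on the Gata3+/- arrays and at 13.76, 13.78 and 13.70 on the Gata3-/- arrays. Its difference of -0.13 (SE 0.07, adjusted p = 0.336) left no overlap, with SDs of 0.06 and 0.04. Ldhb, the subunit that favours the return of lactate to pyruvate, ranged from 6.83 to 8.12 and from 6.81 to 7.89, with a difference of -0.10 and a 95% interval of -1.12 to 0.93.

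**Figure D3:**
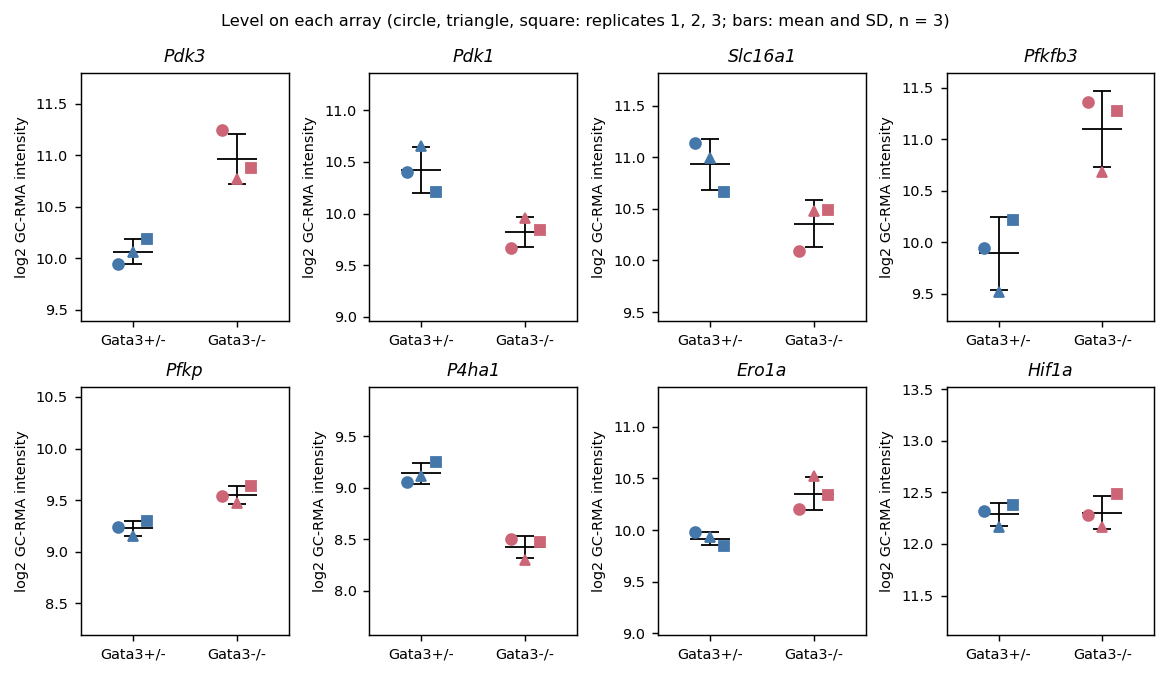
Log2 GC-RMA intensity of 8 genes on each array, with the mean and SD of 3 arrays per genotype, drawn on axes of equal span. The genotypes separate in every panel but that of Hif1a, against 17 of the 30 tested genes (56.7%) and 33.6% of all genes tested. Pdk3, Pfkfb3, Pfkp and Ero1a are higher and Pdk1, Slc16a1 and P4ha1 lower in Gata3-/- arrays. Only Pdk3 and P4ha1 passed the adjusted threshold.

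The HIF subunits and the oxygen sensors gave 0 calls among 6 tested genes in limma, with 0 at an unadjusted p under 0.05. Hif1a, the oxygen-regulated subunit, stood at 12.32, 12.16 and 12.38 on the Gata3+/- arrays and at 12.28, 12.16 and 12.48 on the Gata3-/- arrays. The genotypes overlapped completely (difference 0.02, 95% interval -0.26 to 0.30), which for a protein regulated by its breakdown says only that the transcript differed by less than this interval. Epas1, the HIF-2 alpha subunit, had a difference of 0.28 (SE 0.24). Arnt, the partner subunit, stood at 8.70, 8.76 and 9.08 against 8.64, 8.45 and 8.57 (difference -0.30, SE 0.13, adjusted p = 0.229), and its 2 other tested probe sets had differences of -0.35 and -0.36. Vhl, which marks hydroxylated HIF for degradation, had differences of -0.38 and -0.49 on its 2 probe sets (adjusted p = 0.417 and 0.171). The second, dimmer probe set is outside the counts of genes. It was lower without overlap in Gata3-/- arrays, with an unadjusted limma p of 0.0329. Of the prolyl hydroxylases that sense oxygen, Egln1 had a difference of 0.10 and Egln2 of -0.16, while Egln3, itself a strong HIF target, stayed under the minimum on all arrays at 3.55 to 3.91.

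The 4 tested HIF target genes held the other call, where 5.27% of all genes tested were called. P4ha1 stood at 9.06, 9.11 and 9.25 on the Gata3+/- arrays and at 8.50, 8.30 and 8.47 on the Gata3-/- arrays. The genotypes were well apart, with a difference of -0.71 (SE 0.09, adjusted p = 0.0326). A second probe set of P4ha1 stood at 8.68, 8.73 and 7.83 against 7.56, 8.06 and 7.97, with overlap (difference -0.55, adjusted p = 0.315). The call was lost in each of the 6 limma fits that left out 1 array, in which only 0 to 4 of all genes tested were called. In them P4ha1 had differences of -0.75 to -0.65 and adjusted p-values of 0.0705 to 0.105. The call was also lost without a filter on low values (adjusted p = 0.0547). The 24 neighbours of P4ha1 on chromosome 10 had a median difference of -0.12, with 0 called in limma.

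Ero1a, the oxidase that drives disulfide formation in the endoplasmic reticulum, had higher values in Gata3-/- arrays without passing. It stood at 9.98, 9.93 and 9.85 on the Gata3+/- arrays and at 10.20, 10.52 and 10.34 on the Gata3-/- arrays (difference 0.44, SE 0.10, adjusted p = 0.0751). The genotypes did not overlap on this or on a second probe set, and the difference on the third was 0.36. Of its 24 neighbours on chromosome 14, 5 were called higher, and their median was 0.02. Bnip3, a receptor for mitophagy, stood at 9.21, 9.03 and 9.21 against 8.99, 8.60 and 8.96 (difference -0.30, SE 0.13, adjusted p = 0.242). Ddit4, an inhibitor of mTORC1, overlapped, with a difference of -0.21 and a 95% interval of -0.83 to 0.41.

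Several of the classic HIF targets were at or near the floor of the arrays. Vegfa, the endothelial growth factor, stood at 3.72, 3.41 and 4.42 on the Gata3+/- arrays and at 3.52, 3.52 and 3.53 on the Gata3-/- arrays, so that 1 of 6 arrays reached the minimum. Ankrd37 lay at 2.71 to 2.84 on all arrays. P4ha2, the second collagen prolyl hydroxylase, reached the minimum on 2 Gata3+/- arrays and on 0 Gata3-/- arrays, with values of 2.97 to 5.03 that overlapped. Aldoc, the brain aldolase on chromosome 11, was under the minimum on all Gata3+/- arrays (3.36 to 3.56) and reached it on 2 of 3 Gata3-/- arrays, at 5.10, 4.33 and 3.95, at least 1.38-fold higher when the mean is set against the minimum. Eno2, the neuronal enolase, did likewise at 5.04, 3.59 and 4.98 (at least 1.45-fold), but its lowest Gata3-/- array lay within the Gata3+/- range of 2.80 to 3.76. No test was made for these dim genes.

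**Figure D4:**
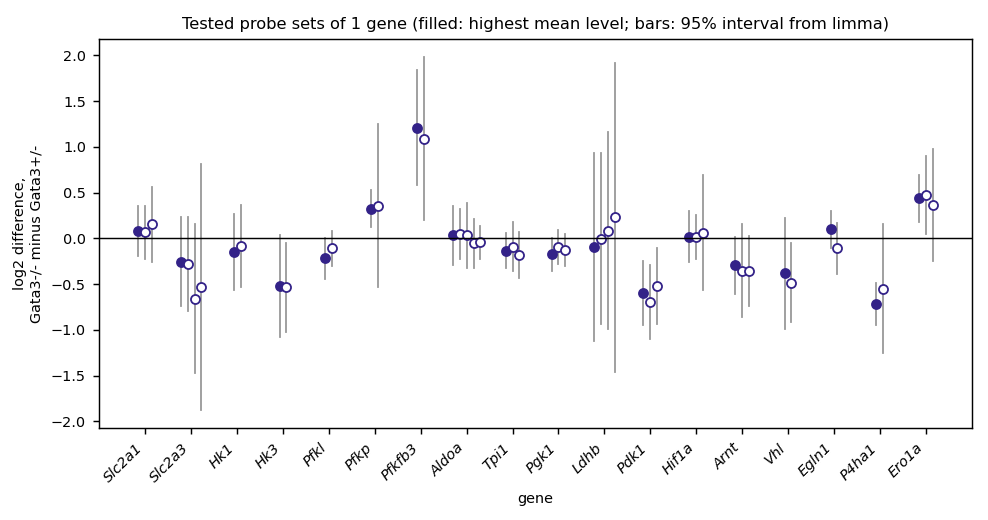
Log2 difference of each tested probe set for the 18 genes with more than 1, with 95% intervals from limma and the brightest probe set filled. All probe sets of a gene share 1 sign in 15 of the 18 genes, the exceptions being Aldoa, Ldhb (-0.10 to 0.23) and Egln1, and the intervals of all their probe sets include 0.

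Across the arrays the genes also varied in a way that the genotype does not describe. In 13 of 30 genes (43.3%) the array numbered 2 was the lowest of its genotype in both genotypes, against 22.5% of all genes tested. They were Slc2a1, Slc2a3, Pfkp, Pfkfb3, Aldoa, Tpi1, Pgam1, Ldhb, Slc16a3, Hif1a, Epas1, Egln1 and Bnip3, so transporters, enzymes and HIF genes alike. Hk1, Pfkm, Pdk1 and Ddit4 (13.3% of the 30, against 21.9%) were highest on those arrays. The summed intensity of 12 OP9 stroma markers was also lowest there, at 5062 and 4079 against 14993 and 16104 on the other Gata3+/- and 7639 and 15450 on the other Gata3-/- arrays. Of these markers 10 were measured, with Dcn and Lum under the minimum throughout. That of 6 erythroid genes was 15378 and 6822 on the arrays numbered 2 and 18548 to 27363 on the others. Both sums are carried by their brightest genes, such as Acta2 and Hbb-bh1, and not all members followed them. Klf1 of the erythroid list (8.51 and 10.04) and Cxcl12 of the stroma list (9.43 and 9.18) were highest of their genotype on the arrays numbered 2. The part of stroma or erythroid cells in these values was not tested. Without both arrays numbered 2, 0 of the 30 genes passed in limma, and only 3 of all genes tested did. Of the 30, 8 had an unadjusted limma p under 0.05 in that fit, against 2037 of all 10302 genes tested. The differences in it were 0.99 for Pdk3 and -0.67 for P4ha1.

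**Figure D5:**
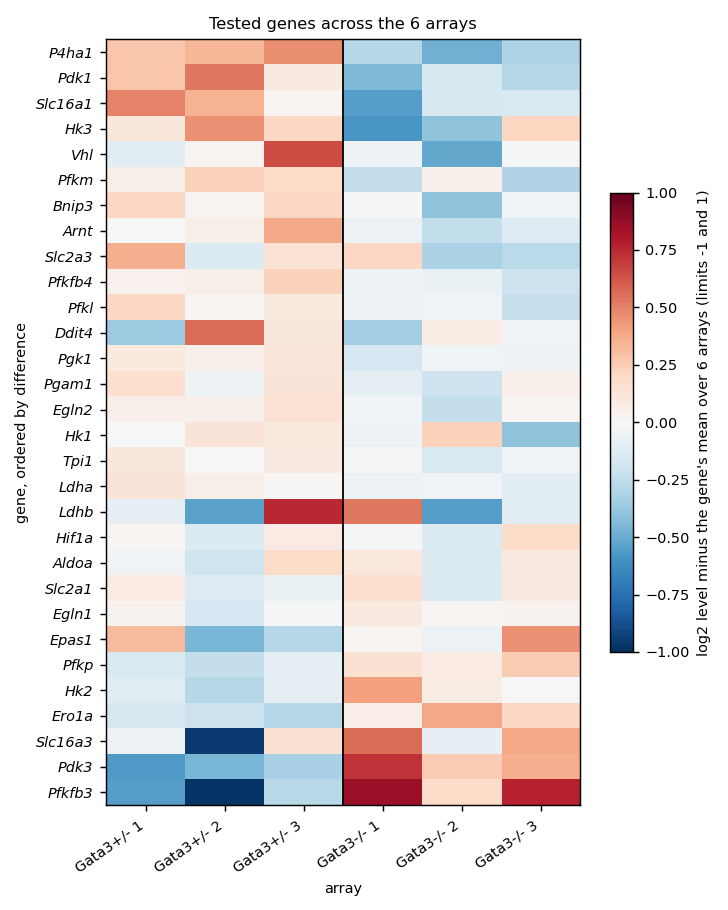
Colours give each tested gene's log2 level minus its mean over the 6 arrays, with genes ordered by their difference between genotypes. The top rows, from P4ha1 to Slc16a1, change colour at the line between the genotypes, as do the bottom rows of Pdk3 and Pfkfb3, while Ldhb and Ddit4 follow the array number, low and high on the arrays numbered 2.

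The rest of central carbon metabolism was described with 6 further lists, which held 70 tested genes of 93. In them 5 genes rose and 0 fell (7.14%, against 5.27% called and 2.86% called higher among all genes), and the median difference was 0.00. Of these lists 2 genes were called without a filter on low values, and 0 in each of the 6 limma fits that left out 1 array (9 to 12 at an unadjusted p under 0.05). Of all genes, 98 were called without the filter and 0 to 4 in the fits that left out 1 array. In the latter fits 2043 to 2484 of 10302 genes had an unadjusted limma p under 0.05. Of 11 tested further glycolysis genes 2 rose and 9 did not pass. Gpd2, the mitochondrial glycerol 3-phosphate dehydrogenase that carries cytosolic electrons to the respiratory chain, rose from 11.07, 10.94 and 10.96 to 11.54, 11.65 and 11.64 (difference 0.62, SE 0.08, adjusted p = 0.0307). Eno3, the muscle enolase, rose by 1.43 (SE 0.19, adjusted p = 0.0342), with Gata3+/- arrays at 7.81 to 8.43 and Gata3-/- arrays at 9.29 to 9.71. Eno3 lies on chromosome 11 and its 24 neighbours had a median of 0.41. Pkm, the pyruvate kinase of most tissues, overlapped with a difference of -0.07 (SE 0.17).

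Of 16 tested genes of the tricarboxylic acid cycle, which oxidises acetyl groups in mitochondria, 2 rose (12.5%, against 2.86% of all genes tested called higher). Suclg1, a subunit of succinyl-CoA ligase on chromosome 6, rose by 0.88 (SE 0.10, adjusted p = 0.0281), among 24 neighbours with a median of 0.63. Ogdh, the 2-oxoglutarate dehydrogenase on chromosome 11, rose by 0.47 (SE 0.08, adjusted p = 0.0383), among neighbours with a median of 0.31. Thus 4 of the 5 risen genes, Kdm3a included, lay on chromosomes 6 and 11 among neighbours with a raised median, and Gpd2, on chromosome 2, had neighbours with a median of 0.06. None of 10 tested genes of pyruvate entry passed in limma (1 at an unadjusted p under 0.05), with Pdhb at 0.32 (adjusted p = 0.0905) and Mpc1 at -0.23 (adjusted p = 0.249). None of 7 genes of the pentose phosphate pathway passed either (1 at an unadjusted p under 0.05), with Tkt at 0.20 (adjusted p = 0.165) and Pgd at -0.17 (adjusted p = 0.316).

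Among 17 tested further HIF targets 1 was called in limma (5.88%, against 5.27% of all genes tested) and 16 did not pass. Kdm3a, a histone demethylase induced by hypoxia, rose by 0.60 (SE 0.09, adjusted p = 0.0358). It lies on chromosome 6, where its neighbours had a median of 0.58. The widest difference in this list was that of Bhlhe40, a transcriptional repressor, which stood at 9.01, 6.62 and 9.20 on the Gata3+/- arrays and at 11.28, 10.36 and 10.88 on the Gata3-/- arrays. The gene was named after its values were seen, and it did not pass (difference 2.57, SE 0.73, adjusted p = 0.109), with the Gata3+/- array numbered 2 far below the other 2. None of 9 tested further HIF regulators passed in limma (0 at an unadjusted p under 0.05), with differences between -0.17 for Cited2 (adjusted p = 0.350) and 0.22, and 0.07 for Elob (adjusted p = 0.594).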

How the data were processed

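For each of 6 arrays the authors deposited the linear intensity of 45101 probe sets. Per the labels it came from GC-RMA, which corrects background by probe sequence and normalizes between arrays. The submitters' processing notes name GCOS. Neither versions nor settings are given in the sources used here. GC-RMA compresses dim values into a floor, so differences near it carry little information, and precision is limited by having 3 arrays per genotype. Gene symbols came from the platform annotation.

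The log2 of each intensity was taken with no further normalization, and 64 control probe sets were left out. Probe sets at a log2 value of 4 on at least 3 arrays were tested (20102) by the two-sided moderated test of limma (version 3.58.1, under R 4.3.3), adjusted by Benjamini and Hochberg over all of them. A gene was represented by its single-symbol tested probe set of highest mean. On simulated data for this comparison over 20102 probe sets, 71% of 100 changes of 1 on the log2 scale and 89% of 100 changes of 2 were recovered, with 7 false calls among 167. The simulated scatter was normal, independent between arrays and set by the variances of the fit. These rates hold for that model only, since scatter shared by arrays of the same number was not simulated. Neighbours of a gene are up to 12 tested genes on each side in the order of the RefSeq table of GRCm38.p6. Promoter windows were read from RefSeq sequences, and 1668 of 1668 overlapping windows of opposite strands were reverse complements. Figures came from matplotlib 3.10.9 under Python 3.11.15.

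The genes, lists and alternatives were chosen with earlier results of these data known. Values on every array are given for called genes, for the 12 uncalled members of smallest p and for Hif1a, Vegfa, Slc2a1, Gapdh, Ldha and Pgk1; other lists give up to 4 called genes or the 2 of smallest p. Further genes serve as examples picked with their values known. Each result was recomputed with no filter, a stricter minimum of 6, a pseudocount of 16, median centring, quantile normalization, array weights, a robust eBayes fit with a variance trend, a block on the replicate number, the mean of a gene's probe sets, and with arrays left out.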

Additional observations from a re-analysis of the deposited data

How the results depend on the processing

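All alternatives were planned with earlier results of these data known. Of probe sets, genes, listed members and genes of the other lists, 878, 543, 2 and 5 were called. Without a filter the counts were 166, 98, 0 and 2, with the replicate block 498, 298, 1 and 2, and without both arrays numbered 2 they were 4, 3, 0 and 0. A variance trend with robust eBayes gave 1349 probe sets and 824 genes, and array weights 2075 probe sets, 1224 genes and 6 members. Fits that lacked any 1 array gave 0 to 9 probe sets, 0 to 4 genes and 0 members and 0 other listed genes. In them 7 to 9 members and 9 to 12 listed genes had an unadjusted limma p under 0.05, against 2043 to 2484 of all 10302 genes tested. Both called members kept their sign in all 16 alternatives, Pdk3 between 0.76 and 1.00 (adjusted p 0.0183 to 0.138) and P4ha1 between -0.75 and -0.63 (adjusted p 0.0171 to 0.128), and each was called in 7. Pfkfb3, between 1.02 and 1.42, was called in 5 of 16 (adjusted p 0.0238 to 0.166). Of 30 members 24 kept their sign in every alternative; Hk1, Aldoa, Ldhb, Hif1a, Egln1 and Ddit4, uncalled throughout, did not. The member called with the replicate block was Pfkfb3 (adjusted p = 0.0431), and Pdk3 and P4ha1 were not (0.0669 and 0.0510). Same-numbered arrays deviated from their genotype means with correlations of 0.005 (number 1), 0.695 (number 2) and 0.429 (number 3). The labels do not say whether a number marks a shared culture or day, and the main fit had no replicate block. Whether the numbers pair the arrays was not tested. Genes near the floor of GC-RMA could not be compared.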
